A study of Mus musculus with 6 samples.

Results

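Receptors for haematopoietic growth factors were examined in RNA-seq libraries of mouse cultures labelled as female germline stem cells. The genes were Kit, Flt3, Csf1r, Csf2rb, Csf2rb2, Csf2ra, Il3ra, Epor and Il1rl1, 9 of the 55401 genes in the deposited table. They were chosen by level, after the mean FPKM of Kit, Csf2rb and Il1rl1 over all libraries had been seen to be high, so their levels are given as a description without a test. The reason given for the choice is these levels and not a difference between metformin and control, which was tested, although other results of these data were known when the genes were chosen. All 6 libraries came from C57BL/6 cells above passage 20, grown on mitotically inactivated STO feeders, an embryonic fibroblast line, in medium with serum and the growth factors LIF, EGF, bFGF and GDNF. The 3 control libraries were from cells without treatment, and the 3 metformin libraries were from cells given 1 μM metformin, a biguanide drug used in type II diabetes, for 24 h. The labels do not say that the libraries of a group came from separate cultures, so p-values measure the spread between these libraries, which may be technical.

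Growth factors of blood formation act through a few kinds of cell surface receptor. Kit, Flt3 and Csf1r are receptor tyrosine kinases, which carry their own kinase and bind stem cell factor, FLT3 ligand and colony-stimulating factor 1. Csf2rb is the common β chain, which binds JAK2 and pairs with an α chain specific for interleukin 3, interleukin 5 or GM-CSF, while the mouse has a second β chain gene, Csf2rb2, whose product pairs with the interleukin 3 α chain. Epor, the erythropoietin receptor, works as a homodimer with JAK2. Il1rl1, or ST2, binds interleukin 33 and needs the accessory chain Il1rap to signal through MyD88. Kit is known both from blood progenitors and mast cells and from germ cells, whereas Csf2rb and Il1rl1 are known chiefly from blood cells.

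Because Csf2rb and Csf2rb2 are near copies of each other, their sequences bear on how far their levels can be read as separate. Csf2rb lies at chr15:78325752-78353847 on the plus strand of GRCm38 and Csf2rb2 at chr15:78282507-78305721 on the minus strand, with 20030 bp between them. The coding sequences of their GENCODE M1 transcripts, with 2691 and 2637 bases, aligned over 2631 bases, of which 2505 (95.2%) were identical and 126 differed. The longest run without a difference was 242 bases. The stretch that follows was chosen for holding the most differing bases among stretches of 120 bases without gaps, so it is not typical. It shows what a read must cover to tell the copies apart. It is given 5′ to 3′, from base 309 to 428 of the Csf2rb coding sequence and from base 312 to 431 of that of Csf2rb2, and capitals mark the 22 bases that differ.
Csf2rb: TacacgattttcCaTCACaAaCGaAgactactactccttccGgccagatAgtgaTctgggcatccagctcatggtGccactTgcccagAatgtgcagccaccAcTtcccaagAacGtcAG
Csf2rb2: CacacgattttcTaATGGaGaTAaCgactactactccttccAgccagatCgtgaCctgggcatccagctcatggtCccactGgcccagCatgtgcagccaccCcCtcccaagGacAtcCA
Of all stretches of 50 bases in the Csf2rb transcript, 18.7% also occurred in that of Csf2rb2, and 18.9% of those in Csf2rb2 occurred in Csf2rb. At 150 bases these shares were 3.58% and 3.70%. The read length and the treatment of reads that fit both copies are not given in the sources used here, so the split of fragments between the copies was taken as the authors made it and their sum was tested as well.

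**Figure D1:**
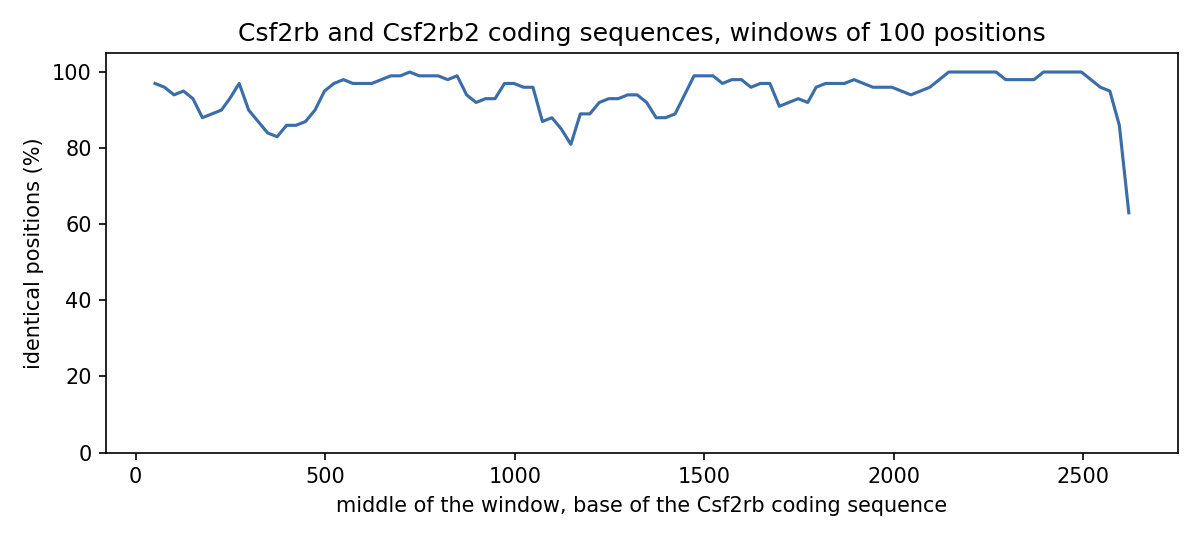
Percentage of identical positions between the Csf2rb and Csf2rb2 coding sequences in windows of 100 aligned positions, plotted at the middle of each window in bases of the Csf2rb coding sequence. Several windows are at 100%, the last window falls to 63.0% because 32 of its positions are gaps, and the lowest elsewhere is 81.0%.

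Promoters of the receptors were searched for the GATA motif, since Gata2, a transcription factor of blood progenitors and mast cells, had a mean of 267 FPKM in these libraries. RefSeq windows of GRCm38.p6 with 250 bases before and 50 after a start site were matched for 7 of the 9 genes, in 9 windows. Csf2rb was not matched and Csf1r was not searched. The letters searched were AGATAA and its variants with T as the first letter, with G as the last or with both, read on either strand, with overlapping matches counted. At least 1 was found in every window of Il1rl1 and in those of Epor, Csf2rb2 and Il3ra, and none in the windows of Kit, Csf2ra and Flt3. Il1rl1 and Kit each had more than 1 window, and the share over all promoters given next counts windows and not genes. Of all 32851 promoters in the RefSeq table, 29.8% held at least 1, and 18 promoters (0.0548%) held 5 or more. The upstream window of Il1rl1 was 1 of those 18, with its motifs beginning 217, 141, 110, 80 and 54 bases before the start site. The windows of Il1rl1 and Epor are shown because the former held the most motifs among the receptors and the latter belongs to a promoter known to carry a GATA site, a choice made after the counts were seen. The first lies at chr1:40429320-40429619 on the plus strand and its start site is also where the deposited table begins the gene. The second lies at chr9:21963527-21963826 on the minus strand. Both are given 5′ to 3′ on the strand of the gene, with the motifs in capitals.
Il1rl1: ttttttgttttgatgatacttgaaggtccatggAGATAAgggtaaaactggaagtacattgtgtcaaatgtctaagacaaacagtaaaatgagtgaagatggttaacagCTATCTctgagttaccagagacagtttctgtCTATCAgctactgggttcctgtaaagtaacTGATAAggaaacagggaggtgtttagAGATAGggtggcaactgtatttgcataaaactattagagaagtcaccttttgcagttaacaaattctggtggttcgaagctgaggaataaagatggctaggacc
Epor: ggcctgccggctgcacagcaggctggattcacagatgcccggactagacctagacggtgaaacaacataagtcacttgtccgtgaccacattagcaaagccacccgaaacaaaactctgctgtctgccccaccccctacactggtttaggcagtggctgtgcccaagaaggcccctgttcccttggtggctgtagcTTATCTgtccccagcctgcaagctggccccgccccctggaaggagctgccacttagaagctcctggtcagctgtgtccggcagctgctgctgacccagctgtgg
A second window of Il1rl1, at chr1:40439379-40439678, held 1 motif. These are matches of letters, and binding of a factor to these windows was not measured in the data used here.

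Expression was given as FPKM, a fragment count scaled for gene length and library size, so that levels can be compared between genes. The libraries held an estimated 13400000 to 14000000 fragments each. The detection limit was set at 3 fragments, which on 1 kb come to 0.214 to 0.224 FPKM at this depth and allow for counting error only. Fragments on a gene were estimated from its FPKM, this depth and its GENCODE M1 exon length, as no counts were given. The authors may have used other lengths, so these fragment numbers, counting errors and limits per gene are approximate. The labelled cell type was checked against marker lists. Of 14 germ cell markers, 9 were listed at 0 in all 6 libraries, Dazl, Dppa3 and Pou5f1 among them, Ddx4 did not exceed 0.05 FPKM and only Zbtb16 (1.08), which progenitors of blood also use, reached a mean of 1 FPKM. None of 15 fibroblast and STO feeder markers and 1 of 10 ovarian somatic markers did so. All 10 pan-leukocyte markers were above 10 FPKM, led by Coro1a, Lcp1 and Cd53 with means of 139, 96.0 and 94.9 FPKM, and their sum was 579 to 584 in control and 583 to 598 with metformin. Groups did not overlap for 6 of these 10, 4 higher and 2 lower with metformin, beside 17.0% of all tested genes. In limma 0 of them had an adjusted p under 0.05 and 1 an unadjusted p under 0.05, beside 0.0281% and 10.8% of all tested genes. The libraries are described by their label, with these values beside it, and the RT-PCR and immunofluorescence that the study used to characterise its cultures were not analysed here. These are bulk libraries, in which fewer cells of a type and less RNA per cell cannot be told apart.

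The receptors fell into 3 levels. Csf2rb, Csf2rb2 and Kit were above 100 FPKM in every library, Il1rl1 and Epor lay between 11.59 and 34.26, and Il3ra, Csf2ra, Csf1r and Flt3 were at or below 1.42. In order of their means, Csf2rb was 1.13 times Csf2rb2, which was 1.09 times Kit, and Kit was 3.59 times Il1rl1. Il1rl1 was 2.57 times Epor, and Epor was 11.8 times Il3ra. The ranges of neighbours in this order did not overlap, except those of Il3ra and Csf2ra and those of Csf1r and Flt3.

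**Figure D2:**
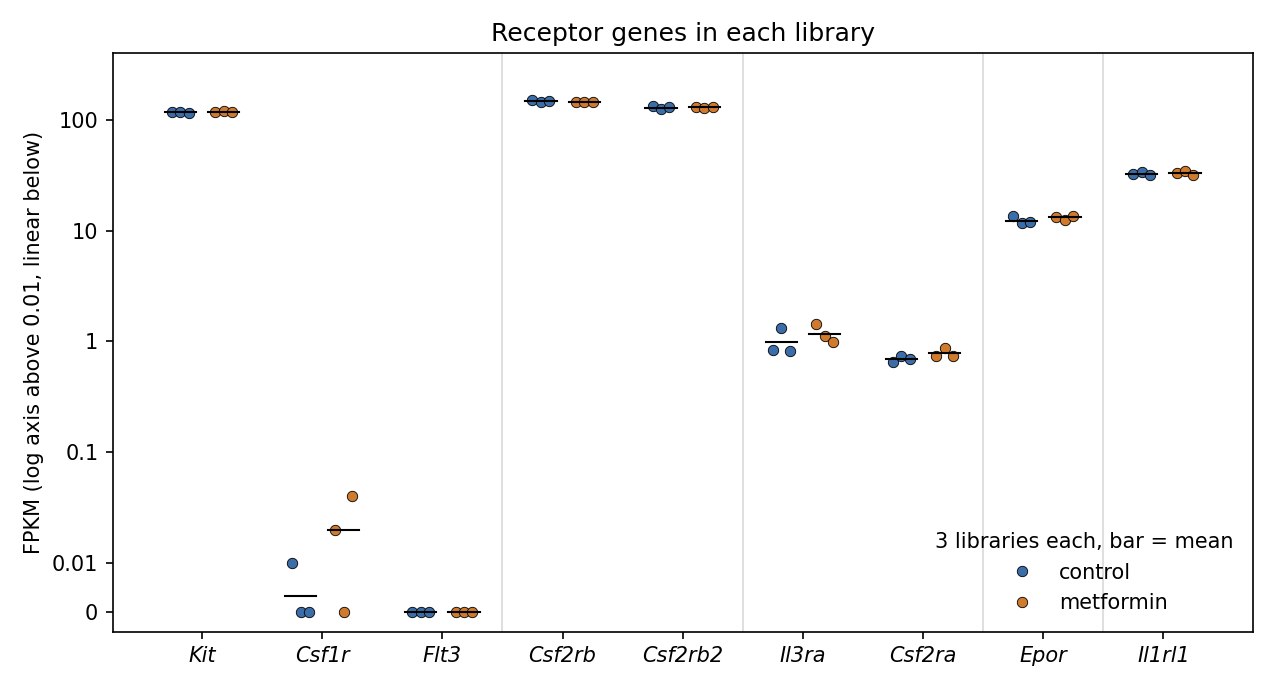
FPKM of the 9 receptor genes in each of the 3 control (blue) and 3 metformin (orange) libraries, on an axis that is logarithmic above 0.01 and linear below, with bars at the group means. Csf2rb, Csf2rb2 and Kit lie above 100, Il1rl1 and Epor between 10 and 40, and the other genes near or below 1, with the groups overlapping for every gene.

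Among the receptor tyrosine kinases, Kit was high and the others were near or at 0. Kit, at chr5:75574916-75656722 on the plus strand, had 118.22, 118.38 and 116.14 FPKM in the control libraries and 116.54, 119.14 and 117.91 with metformin. The groups overlapped, and both means were 118 FPKM (SD 1.25 for control and 1.3 for metformin, n = 3 each). This put Kit at percentile 96.3 of the 10661 tested genes. With an estimated 9237 to 9726 fragments on the gene, counting alone gives a coefficient of variation of about 1.03%. The coefficient between libraries was 1.06% in control and 1.10% with metformin. The log2 fold change was 0.003 (standard error 0.02, limma, adjusted p = 0.971 by Benjamini-Hochberg over all tested genes), with a 95% interval from -2.95% to 3.53%. Flt3, the kinase of early lymphoid and myeloid progenitors, was listed at 0 in all 6 libraries, where 3 fragments would be worth 0.0351 FPKM. Csf1r, the receptor that macrophages depend on, was at 0.01, 0 and 0 FPKM in control and at 0.02, 0 and 0.04 with metformin, or 0 to 3 fragments. All of these values were under the 0.0415 FPKM of 3 fragments. The end of Csf1r overlaps the oppositely oriented Hmgxb3, at 5.51 FPKM on average, whose fragments could be counted for Csf1r if strand was ignored.

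Both β chain genes were above Kit in every library. Csf2rb had 150.75, 143.29 and 147.53 FPKM in the control libraries and 145.12, 145.19 and 143.30 with metformin. All metformin values fell within the control range, with means of 147 ± 3.74 and 145 ± 1.07 FPKM (SD, n = 3 each), at percentile 97.2 of tested genes. The log2 fold change was -0.03 (standard error 0.02, adjusted p = 0.726 from limma), with a 95% interval from -5.46% to 2.06%. Csf2rb2 had 132.05, 124.15 and 130.24 FPKM in control and 129.75, 127.83 and 129.23 with metformin, again within the control range. Its means were 129 ± 4.14 and 129 ± 0.993 FPKM (SD, n = 3 each), and the log2 fold change was 0.002 (standard error 0.03, adjusted p = 0.991 from limma), with an interval from -4.14% to 4.59%. For both genes the control libraries varied more than the 0.989% and 1.10% estimated for counting, with coefficients of variation of 2.54% and 3.21%. Those of the metformin libraries were 0.741% and 0.77%, below these estimates, which depend on the gene lengths used. Csf2rb2 was 0.876, 0.866 and 0.883 times Csf2rb in the control libraries and 0.894, 0.880 and 0.902 times with metformin. This ratio overlapped between the groups (two-sided exact permutation test, p = 0.2, adjusted p = 0.5 over the 5 ratios compared, where 0.1 is the smallest p of 3 libraries against 3). The FPKM of both copies summed to 276 ± 7.83 in control and 273 ± 1.23 with metformin (SD, n = 3 each), and the log2 fold change of the sum was -0.0129 (adjusted p = 0.884 from limma).

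The α chains that pair with these β chains were low. Il3ra, which binds interleukin 3, lies at chr14:14346275-14356011 on the plus strand and had 0.83, 1.32 and 0.82 FPKM in control and 1.42, 1.11 and 0.98 with metformin. The groups overlapped (0.990 ± 0.286 and 1.17 ± 0.226 FPKM, SD, n = 3 each). With an estimated 16 to 28 fragments on the gene, counting alone gives a coefficient of variation of about 21.9%. The log2 fold change was 0.13 (standard error 0.13, adjusted p = 0.757 from limma), and its 95% interval, from -11.9% to 35.8% of FPKM + 1, was the widest among the tested receptors. With a pseudocount of 0.1 the log2 fold change was 0.24 (adjusted p = 0.760 from limma), and with 1 library left out it lay between 0.0481 and 0.2447. Csf2ra, which binds GM-CSF, had 0.65, 0.73 and 0.70 FPKM in control and 0.74, 0.87 and 0.73 with metformin. Its mean of 0.737 FPKM was below the 1 FPKM needed to enter the test. In the fit without that filter its log2 fold change was 0.07 (standard error 0.07, adjusted p = 0.796 from limma over 22809 genes). The deposited table gives Csf2ra a span of 4473 bp on chromosome 19, from 61223957 to 61228429, against 11271 bp in RefSeq, and FPKM depends on the gene model used. The interleukin 5 α chain, Il5ra, ranged from 0.04 to 0.18 FPKM. Csf2rb was thus at 102 to 182 times the level of Il3ra and 167 to 232 times that of Csf2ra in the same library. The ratios of Il3ra and of Csf2ra to Csf2rb overlapped between the groups (exact permutation tests, adjusted p = 0.625 and 0.5, in a design that cannot give a p under 0.1).

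Epor, at chr9:21958897-21963506 on the minus strand, had 13.39, 11.59 and 11.94 FPKM in the control libraries and 13.25, 12.56 and 13.66 with metformin. One control library lay among the metformin values, and the means were 12.3 ± 0.954 and 13.2 ± 0.556 FPKM (SD, n = 3 each). The log2 fold change of 0.09 (standard error 0.06) had the lowest adjusted p of the receptors, 0.598 from limma, with a 95% interval from -3.05% to 17.0%. Of 10 listed erythroid markers 3 were not matched in the table. Among those matched, Klf1, Hba-a1 and Alas2 did not exceed 0.47 FPKM, Slc4a1 was listed at 0 in every library, and Gata1 had a mean of 3.59 FPKM. Tfrc, the transferrin receptor that dividing cells also use, was high, with a mean of 312 FPKM.

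Il1rl1, at chr1:40429570-40465415 on the plus strand, had 32.37, 33.45 and 31.95 FPKM in control and 33.06, 34.26 and 31.60 with metformin. The groups overlapped, with means of 32.6 ± 0.774 and 33.0 ± 1.33 FPKM (SD, n = 3 each), and the gene stood at percentile 83.0 of tested genes. Its log2 fold change was 0.02 (standard error 0.04, adjusted p = 0.906 from limma), with a 95% interval from -4.66% to 7.23%. Il1rap, the accessory chain without which ST2 does not signal, was at 0 to 0.01 FPKM, under the 0.0191 FPKM of 3 fragments. Il1rl1 was at least 1650-fold higher than that limit in every library. Its span is 35846 bp in the deposited table, against 60555 bp in RefSeq, and its FPKM depends on that gene model. The table holds 1 value per gene, so the soluble and membrane forms of ST2 were not told apart.

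Across the receptors, 0 of the 6 tested genes had an adjusted p under 0.05 in limma and 0 had an unadjusted p under 0.05. Over all 10661 tested genes these shares were 0.0281% and 10.8%. Groups did not overlap for 0 of the 6, against 17.0% of all tested genes. The median log2 fold change of the 6 was 0.0097, with 5 higher and 1 lower, and that of all tested genes was 0.0041, with 5580 higher and 5081 lower. A p above the threshold does not show that a level stayed the same, and the intervals give the changes that remain possible. For Kit, Csf2rb, Csf2rb2 and Il1rl1 they lay between -5.46% and 7.23%, and they were wider for Epor and Il3ra.

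**Figure D3:**
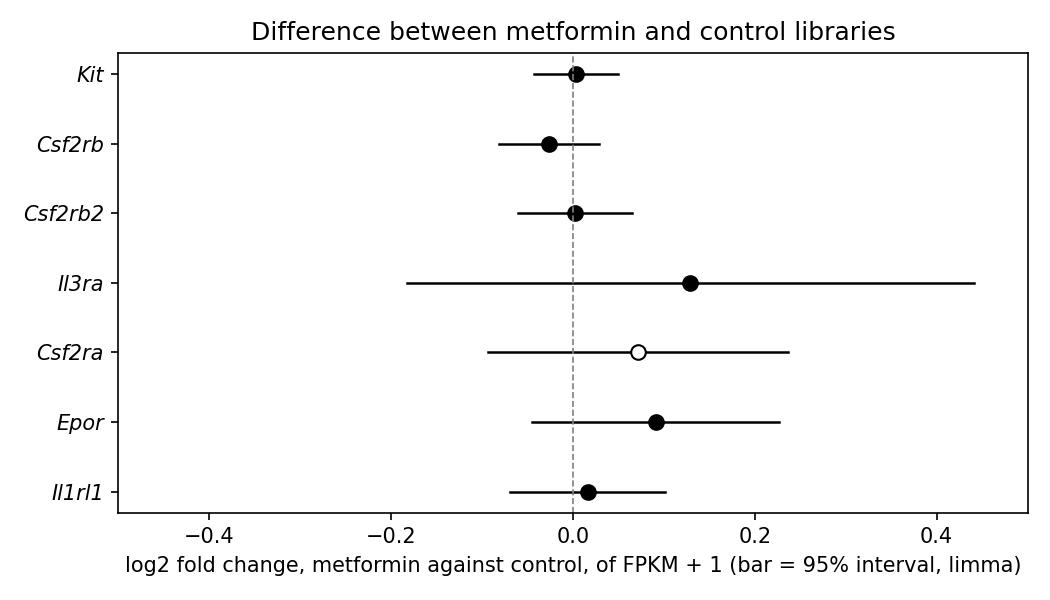
Log2 fold change of FPKM + 1, metformin against control, for 7 receptors, with 95% intervals from limma. Filled points are from the fit of genes that reached a mean of 1 FPKM and the open point, Csf2ra, is from the fit without that filter, and every interval includes 0, from the narrow one of Kit to the one of Il3ra that reaches 0.441.

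Ligands of these receptors other than Csf1 were at low levels or at 0 in the same cultures. Of 8 ligand genes, Il3, Epo and Flt3l were listed at 0 in all libraries. The deposited table gives Epo a span of 50223 bp, against 2797 bp in RefSeq, and Flt3l 10310 bp against 5308 bp. The values of 0 for Epo and Flt3l thus rest on gene models that differ from RefSeq. Kitl, or stem cell factor, ranged from 0 to 0.06 FPKM, Il33 from 0 to 0.02, Il34 from 0 to 0.18, and Csf2, which encodes GM-CSF, from 0 to 0.45, or at most 5 fragments. Kitl, Il34 and Csf2 passed the value of 3 fragments in at least 1 library, and Il33 in none. Csf1 alone was above 1 FPKM, with 3.58 ± 0.186 in control and 3.36 ± 0.322 with metformin (SD, n = 3 each, log2 fold change -0.07, adjusted p = 0.743 from limma), and its receptor Csf1r was not above 3 fragments. None of the 8 is among the growth factors that the labels list for the medium, where the content of the serum is not given.

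None of the receptors for the factors that the labels list in the medium came near the level of Kit. Of 11 genes, Egfr, which binds EGF, and Gfra1, which binds GDNF, were listed at 0 in all libraries. Ret, the kinase that signals for GDNF, ranged from 0.01 to 0.12 FPKM and Lifr, the LIF receptor, from 0 to 0.03. The bFGF receptors Fgfr1 and Fgfr2 did not exceed 0.11 FPKM, Fgfr3 ranged from 0.35 to 0.46 and Fgfr4 from 0.04 to 0.15. Fgfr2 spans 2960900 bp in the deposited table, against 104358 bp in RefSeq, and its low value rests on that gene model. Il6st, the signalling chain shared by LIF and interleukin 6, was the 1 gene above a mean of 1 FPKM, with 1.39 ± 0.0551 in control and 1.25 ± 0.130 with metformin (SD, n = 3 each, log2 fold change -0.09, adjusted p = 0.739 from limma).

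**Figure D4:**
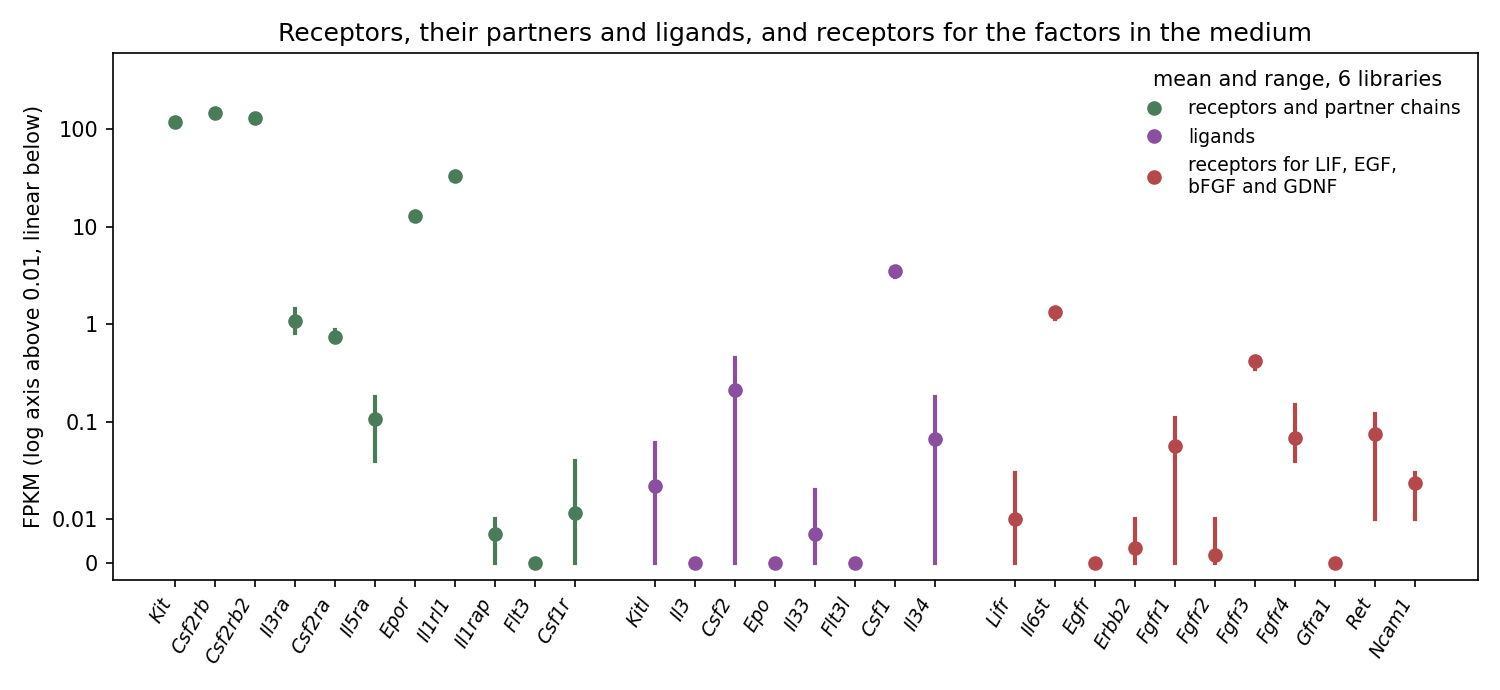
Mean FPKM (points) and range (lines) over the 6 libraries for receptors and partner chains (green), their ligands (purple) and receptors for the factors in the medium (red), on an axis that is logarithmic above 0.01 and linear below. Kit, Csf2rb, Csf2rb2, Il1rl1 and Epor lie above 10, whereas among the ligands and the receptors for LIF, EGF, bFGF and GDNF only Csf1 and Il6st lie above 1.

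Other receptors of blood cells were measured for comparison. Of 28 listed, 15 reached a mean of 1 FPKM and 7 a mean of 10. The highest was Il4ra, the interleukin 4 receptor, with 77.12, 77.34 and 76.19 FPKM in control and 82.46, 83.33 and 81.01 with metformin. The metformin values were all above the control values, with a log2 fold change of 0.10 (standard error 0.02, unadjusted p = 0.00247), but it did not pass over all genes (adjusted p = 0.320 from limma). Il18rap, the accessory chain of the interleukin 18 receptor, had a mean of 60.8 FPKM, the chemokine receptor Cxcr2 34.2 and the interferon receptor chain Ifnar2 21.4. Of the 15 tested, 0 had an adjusted p under 0.05, 1 had an unadjusted p under 0.05, and groups did not overlap for 4, beside 10.8% of all tested genes at that unadjusted p and 17.0% without overlap. The median log2 fold change was 0.02.

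Signalling genes below these receptors were present at clear levels. Of 58 kinases, STATs, adaptors and phosphatases, 56 were tested. Jak2, the kinase bound to the β chain and to Epor, had a mean of 7.37 FPKM and Jak1 26.2. Stat5a and Stat5b, the transcription factors that JAK2 activates, had 34.5 and 40.8, and Pik3cd, the leukocyte PI3-kinase, had 225 FPKM. Myd88, which acts below ST2, had a mean of 16.9 FPKM, and the adaptor Gab1 was listed at 0. With metformin 36 of the 56 were higher and 20 lower, beside 5580 higher and 5081 lower over all tested genes. Of the 56, 0 had an adjusted p under 0.05 in limma, whereas 4 were higher and 1 lower at an unadjusted p under 0.05. Groups did not overlap for 7, and the median log2 fold change was 0.02. Both counts, 5 and 7 of 56, were below the shares over all tested genes, 10.8% and 17.0%. The genes named next are those with the smallest p and no overlap. Hras, a Ras GTPase, went from 18.5 ± 0.0586 to 20.2 ± 0.0850 FPKM (SD, n = 3 each, log2 fold change 0.12, adjusted p = 0.320 from limma). The exchange factor Vav1 had 32.9 and 35.3 FPKM (adjusted p = 0.346) and the phospholipase Plcg2 34.0 and 35.5 (adjusted p = 0.413), in the same order and test.

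Genes known to follow STAT5 were described in the same way, and 13 of 14 were tested. Cish and Socs2, feedback inhibitors of cytokine receptors, had means of 17.2 and 10.5 FPKM, Pim1 40.0 and Mcl1, which keeps cells alive, 64.2. Of the 13, 0 had an adjusted p under 0.05 in limma and 4, all higher with metformin, had an unadjusted p under 0.05. Groups did not overlap for 3, and the median log2 fold change was 0.03. Over all tested genes the shares were 10.8% at that unadjusted p and 17.0% without overlap. Those 3 were Myc, the proliferation factor, with 173 ± 2.71 and 188 ± 2.06 FPKM (SD, n = 3 each, adjusted p = 0.283 from limma), the survival gene Bcl2l1 with 29.7 and 31.6 (adjusted p = 0.365) and the kinase Pim2 with 16.8 and 18.2 (adjusted p = 0.450), control before metformin.

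The receptors were also set beside markers of the blood cells that carry them. Kit and Il1rl1 are both found on mast cells, for which 5 of 15 mast cell and basophil markers had a mean of at least 10 FPKM. Cpa3, a mast cell protease, had 352 FPKM, Gata2 267 and Srgn, the core protein of granule proteoglycans, 76.3. In contrast Fcer1a, the α chain of the IgE receptor, and the proteases Tpsb2, Tpsab1, Mcpt4 and Prss34 were listed at 0 in all libraries, as was Mrgprb2, and Hdc did not exceed 0.03 FPKM. The summed level of the 15 ranged from 713 to 749 FPKM in control and from 701 to 720 with metformin. Of 12 stem and progenitor markers 7 reached 1 FPKM, led by Myb, Hlf and Tal1 with 24.9, 18.8 and 17.0 FPKM, whereas Cd34, Procr, Mecom and Hoxa9 did not exceed 0.29 FPKM, and the list summed to 85.5 to 88.4 FPKM in control and 86.9 to 90.1 with metformin. Itga2b, Itgb3 and Pf4 of 8 megakaryocyte markers had 38.4, 25.2 and 12.2 FPKM, with Gp6 at 0. Adgre1, with 58.3 FPKM, was the 1 of 12 monocyte and macrophage markers above 10, beside Csf1r at or near 0. None of 10 neutrophil and none of 10 T and B lymphocyte markers reached 1 FPKM. No cell type was assigned from these lists, and their part in the levels of the receptors was not tested.

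The genes whose level was most like that of Kit over the 6 libraries, by Pearson's r of log2(FPKM + 1), were Gm12251 (0.993), Clk2 (0.992) and Cstf1 (0.985). Kit varied by little more than counting error over these libraries, so this likeness is a description of 6 values only. Kit was 0.784 to 0.826 times Csf2rb in the 6 libraries, with means of 0.799 ± 0.0234 in control and 0.815 ± 0.0108 with metformin (SD, n = 3 each, exact permutation test, adjusted p = 0.625).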

How the data were processed

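RNA-seq of 3 control and 3 metformin libraries was analysed. The authors deposited FPKM for 55401 Ensembl genes, rounded to 2 decimals, with no fragment counts. The submitters' processing notes name HISAT2, DESeq2 and mm9 without their roles, whereas gene positions in the table are those of GRCm38. The labels name a stranded kit and the study's methods another, and whether counting used strand is not given in the sources used here. Symbols were found for 32589 genes. Depth was estimated from the step that 1 fragment makes in genes with a single exon under 400 bp, where 100% of values lay within 0.1 of a whole multiple.

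Values were tested as log2(FPKM + 1), a scale that understates changes of low genes, on the 10661 genes whose mean reached 1 FPKM, using limma (version 3.58.1, R 4.3.3) with a trend, two-sided, Benjamini-Hochberg adjustment over all tested genes and a threshold of 0.05. Exact permutation tests compared ratios. The fit was tested on simulated data. Members and lists were chosen with earlier results of these data known. Named were all members, ligands and partner chains, the highest genes of the other receptor and marker lists, up to 3 genes per list with the smallest p and no overlap, and the 3 genes most like Kit. Others, such as absent markers and single signalling genes, were named after their values were seen. The alternatives tried were 0.1 as the pseudocount, no filter or 10 FPKM, TPM, quantile and median scaling, no trend, a replicate block, summed β chain copies and each library left out. Sequences came from RefSeq (GRCm38.p6) and GENCODE M1, read with Python 3.11.15, and no coordinates were converted.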

Additional observations from a re-analysis of the deposited data

How the results depend on the processing

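No receptor passed the threshold under any alternative, and adjusted p from limma ranged from 0.475 to 0.833 for Epor, from 0.617 to 0.943 for Csf2rb and from 0.619 to 0.941 for Il3ra. Over all genes 3 passed, and 7 (4 of them higher) passed with no filter on low values, when 22809 genes were tested. The signs of the small log2 fold changes of Kit and Csf2rb2 depended on the scaling and on single libraries, and that of Il1rl1 on metformin replicate 2 alone. Kit was at -0.0011 with libraries rescaled to the same sum, and Csf2rb2 at -0.0027 with that scaling, -0.0076 with quantile normalization and -0.0005 with median centring. With 1 library left out, Kit ranged from -0.0053 to 0.0115, Csf2rb2 from -0.0243 to 0.0198 and Il1rl1 from -0.0113 to 0.0453, whereas Csf2rb (-0.0449 to -0.0085), Il3ra (0.0481 to 0.2447) and Epor (0.0523 to 0.1487) kept their sign. The difference in the ratio of Il1rap to Il1rl1, -9.94e-07 with all libraries, ranged from -0.000105 to 0.000102 in the same way, with Il1rap under its limit of detection throughout.

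With the replicate number as a block, 2 genes and 0 receptors passed. Libraries of the same number did not deviate together, with correlations of -0.0317, 0.0181 and 0.0479 for numbers 1 to 3, and of all libraries only both replicates 3 correlated best with their own number, so the numbers were not taken as pairs.

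Depth limits the low receptors: at an estimated 16 to 28 fragments Il3ra carries a counting error of about 21.9%, and Csf1r and Flt3 cannot be told from 0. The share of fragments that belongs to each β chain copy rests on the authors' counting, and no cell type was assigned to these cultures from the marker lists.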

Other observations

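Il1rl1 was not the only receptor of its family to stand beside a low partner. Il18rap, the accessory chain of the interleukin 18 receptor, ranged from 59.65 to 61.62 FPKM over the 6 libraries, while Il18r1, the chain that binds interleukin 18, ranged from 0.65 to 0.94. Il18rap was 64.0 to 94.8 times Il18r1 in the same library. For Il1rl1 the chain that binds the ligand was the high one and the accessory chain Il1rap the low one, and for interleukin 18 the order was the reverse. This pair was singled out after its values were seen.

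The groups did not overlap for 2 of the 5 tested mast cell and basophil markers, 1 lower and 1 higher with metformin, beside 17.0% of all tested genes. The mast cell protease gene Cpa3 had means of 366 FPKM in control and 338 with metformin (log2 fold change -0.11, adjusted p = 0.369 from limma). Gata2 had 258 and 275 FPKM in the same order (log2 fold change 0.09, adjusted p = 0.320 from limma). Tfrc, the transferrin receptor gene, had 321 and 302 FPKM in the same order, also without overlap (log2 fold change -0.09, adjusted p = 0.331 from limma). None of these 3 genes passed over all tested genes.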
